A study of Mus musculus with 8 samples.

Results

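The 10 genes described here encode the core of the canonical Wnt pathway downstream of the Wnt ligands, and they were taken as a fixed list of names: the co-receptor *Lrp6*, the beta-catenin gene *Ctnnb1* and its destruction complex gene *Apc*, the nuclear partners *Lef1*, *Tcf7*, *Tcf7l1* and *Tcf7l2*, and the feedback targets *Axin2*, *Nkd1* and *Sp5*. All 10 were among the 46517 genes of the bulk RNAseq tables, and 9 were among the 24051 genes of the table of nuclei. *Sp5* was not analysed in nuclei. In the absence of a Wnt, a complex built on the APC and Axin proteins marks beta-catenin for destruction. A Wnt bound to Frizzled and LRP5 or LRP6 halts that complex, and beta-catenin then enters the nucleus, where it binds a LEF or TCF protein and turns on target genes. Some targets, such as *Axin2* and *Nkd1*, dampen the signal in turn, and for this reason their transcripts are commonly read as a gauge of canonical Wnt signaling. The pathway is known to be needed for formation of the dentate gyrus, for the proliferation of its progenitors, and for the barrier properties of brain blood vessels.

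Hippocampi came from 12-week-old mice of 2 genotypes, *Wls* fl/-;*Gfap*-Cre (mutant) and their *Wls* fl/+;*Gfap*-Cre littermates (control), and each library was made from both hippocampi of 1 mouse. Bulk RNAseq and single nucleus RNAseq (snRNAseq) were each performed on 2 mutant and 2 control mice. *Wls* encodes the chaperone that carries Wnts to the cell surface, so that the deletion removes Wnt secretion from recombined cells and not the response to Wnts made elsewhere. All mice carry the *Gfap*-Cre transgene, which is active in progenitors of the medial and dorsal cortex, and the control keeps 1 functional *Wls* allele in recombined cells. The comparison of genotypes asks whether transcripts of the pathway's effectors and targets differ in the adult hippocampus of mice whose progenitors lost *Wls*, and the nuclei ask in which cell types these transcripts are found.

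The bulk libraries held 56002381 to 79576196 expected counts and the snRNAseq samples 26307081 to 76486132 UMIs (unique molecular identifiers, each standing for 1 captured RNA molecule) in 5304 to 10460 nuclei. *Wls* was at 13.22 and 13.03 CPM (counts scaled to the same library total) in the bulk control replicates and 3.67 and 6.86 CPM in the mutant replicates. In all nuclei it was at 20.7 and 27.4 CPM in the controls and 6.96 and 11.7 CPM in the mutants. The methods describe every mouse as male. *Xist*, the RNA of the inactive X chromosome, was nevertheless at 518 and 230.1 CPM in bulk replicate 2 of the control and the mutant, against 1.05 and 1.44 CPM in replicate 1. Replicate 2 of either genotype thus goes against that description in bulk, and values within each replicate are given below where a result turns on them. The mutant nuclei included 90 and 463 dentate granule cells (DGCs), against 2336 and 2007 in the controls. Any 2 snRNAseq samples shared 8 to 21 cell barcodes, at most 0.309% of the smaller sample.

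A window of 250 bases before the RefSeq transcription start (GRCm38.p6, the build of the files) was at hand for 8 of the 10 genes. LEF and TCF proteins bind a site whose core reads CTTTG, and the longer form CTTTGAT is the classic Wnt response motif. Both were searched on both strands, and each CTTTGAT also counts as a CTTTG. Among the 14 windows of the 8 genes, CTTTGAT was found once, in *Sp5*, and 3.21% of all 32851 promoter windows hold it. The *Sp5* window holds 4 matches of the core, a number that 0.77% of windows reach, whereas 48.6% hold at least 1. The windows of 3 targets of the pathway are shown because their letters differ in this respect: *Sp5* has the long form, the second of 4 listed starts of *Lef1* has only the core, and *Axin2* has neither. Capitals mark the matches, each window is read 5′ to 3′ on the plus strand and ends at the base before the start.
Sp5, chr2:70474673-70474922: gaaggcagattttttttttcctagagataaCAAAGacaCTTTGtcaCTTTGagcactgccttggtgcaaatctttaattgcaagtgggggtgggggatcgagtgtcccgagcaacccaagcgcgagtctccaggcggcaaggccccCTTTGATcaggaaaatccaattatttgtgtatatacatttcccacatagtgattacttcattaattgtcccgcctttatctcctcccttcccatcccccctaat
Lef1, chr3:131110073-131110322: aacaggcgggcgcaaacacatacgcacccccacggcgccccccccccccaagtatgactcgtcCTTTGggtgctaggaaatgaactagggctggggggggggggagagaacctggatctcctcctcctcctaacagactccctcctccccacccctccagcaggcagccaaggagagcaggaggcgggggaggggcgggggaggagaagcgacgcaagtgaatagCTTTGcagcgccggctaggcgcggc
Axin2, chr11:108920099-108920348: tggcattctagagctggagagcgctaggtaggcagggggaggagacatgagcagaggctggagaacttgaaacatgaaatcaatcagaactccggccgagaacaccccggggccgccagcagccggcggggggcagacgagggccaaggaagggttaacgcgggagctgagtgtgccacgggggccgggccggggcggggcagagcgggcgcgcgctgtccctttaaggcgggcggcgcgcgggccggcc
These matches describe letters, and no binding was measured in this series.

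In the bulk libraries none of the 10 genes passed the thresholds of the study. Levels are compared between genes as TPM (a share of all transcripts that corrects for transcript length). In the controls *Ctnnb1* was by far the most abundant, at 338 and 329.8 TPM, followed by *Apc* at 57.8 and 60.8, *Lrp6* at 20.2 and 21.5 and *Axin2* at 18.1 and 18.2 TPM. The TCF family genes and *Nkd1* lay close together, between 2.61 and 3.93 TPM in the control replicates. Over all 4 libraries the ranges of *Tcf7l2*, *Nkd1*, *Lef1* and *Tcf7l1* overlap with their neighbours in that order. *Sp5* was nearly absent, at 0.10 to 0.19 TPM, or 7 to 10.4 expected counts per library.

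Genotypes were compared after scaling by TMM, on the scale of CPM. Called genes had an FC (fold change) above 3 and an FDR (Benjamini-Hochberg adjusted p) below 0.05 in edgeR's quasi-likelihood test. No gene of the 9 tested was called, where 0.218% of the 20687 genes tested were, and none had an FDR below 0.05 at any FC (1.21% of genes did). *Sp5* did not pass the filter on low counts. DESeq2 called none at FC above 3. At an unadjusted p below 0.05 stood 3 of the 9, *Axin2*, *Ctnnb1* and *Tcf7l1*, where 18.8% of all genes did. Their share is above that background, but it rests on 3 genes. The median log2 fold change of the 9 genes was -0.13, and that of all genes tested was 0.01.

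**Figure D1:**
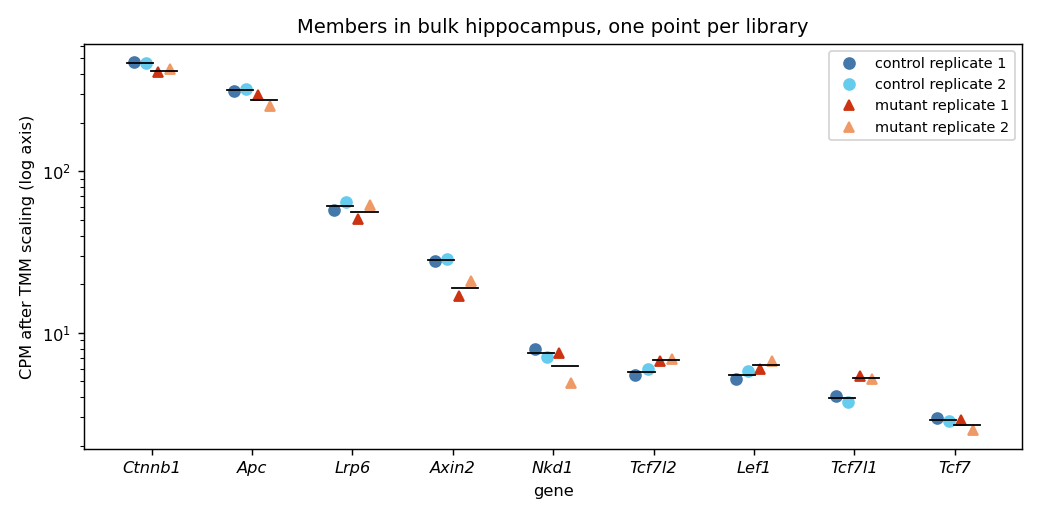
Levels of 9 genes in the bulk libraries, in CPM after TMM scaling on a log axis, with circles for the control replicates, triangles for the mutant replicates and a black bar at the mean of each genotype. Levels of different genes are not corrected for length here. The mutant points of *Axin2*, at 16.8 and 21.0 CPM, lie below both control points, at 28.0 and 28.5 CPM.

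*Axin2* (chr11:108920349-108950783, plus strand), the negative feedback gene whose protein scaffolds the destruction complex, showed the largest difference. Control replicates held 28.0 and 28.5 CPM of it, and mutant replicates 16.8 and 21.0 CPM. Both mutant libraries were thus below both controls, and the gap to the nearest control exceeded the distance between the mutant libraries. Mutants differed from controls by a log2 fold change of -0.58 (standard error 0.125), a ratio of control to mutant of 1.49, with an unadjusted p of 0.00491 and an FDR of 0.11. Within replicate 1 the log2 ratio was -0.74, and within replicate 2, where *Xist* is present, it was -0.44. In DESeq2 the FDR of *Axin2* was 0.00214, and it was the only one of the 9 below 0.05, where 8.56% of the genes with an adjusted p were. Over 9 alternatives the FDR ranged from 0.00214 to 0.572, the highest without control replicate 2. The fit that left out mutant replicate 1 gave 0.0397, and the one that left out mutant replicate 2 gave 0.0146. In such fits the 1 library left of a genotype is assumed to vary like the pair of the other.

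The summed level of 5 DGC markers moved with *Axin2* in the same libraries, from 369 and 377 CPM in the controls to 74.9 and 70.2 CPM in the mutants. The summed astrocyte markers were at 4113 and 4280 CPM in the controls and 3420 and 3162 CPM in the mutants, so that they too were lower. In a bulk sample, fewer cells of a type and less RNA per cell cannot be told apart. The part of either list in the *Axin2* difference was not tested, and the levels of *Axin2* within DGC and astrocyte nuclei are given below.

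*Nkd1* (chr8:88521354-88594884, plus strand), whose protein binds Dishevelled and damps the signal, was at 7.94 and 7.04 CPM in the controls and 7.53 and 4.89 CPM in the mutants. Only mutant replicate 2 was below the controls. The difference of -0.27 on the log2 scale (standard error 0.232, FDR 0.592) rests on that library. Leaving it out gave 8e-04, and leaving out mutant replicate 1 gave -0.61. *Sp5* (chr2:70474923-70477729, plus strand), a repressor induced by Wnt in embryos, had too few counts for any difference to be detectable at this depth.

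Not all of the 4 nuclear partners were higher in both mutants. *Tcf7l1* (chr6:72626378-72789254, minus strand), whose protein acts mainly as a repressor of Wnt targets, was at 4.09 and 3.75 CPM in the controls and 5.39 and 5.15 CPM in the mutants. Both mutants were above both controls, by a log2 fold change of 0.43 (standard error 0.147, unadjusted p 0.0313, FDR 0.219). *Tcf7l2* (chr19:55741820-55933654, plus strand), an activator or repressor depending on the presence of beta-catenin, was at 5.49 and 5.99 CPM in the controls and 6.73 and 6.90 CPM in the mutants (log2 fold change 0.25, standard error 0.131, FDR 0.385).

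*Lef1* (chr3:131110471-131224356, plus strand), which acts mainly as an activator and is itself a target of the pathway in some tissues, was at 5.21 and 5.81 CPM in the controls and 5.95 and 6.74 CPM in the mutants (log2 fold change 0.20, standard error 0.147, FDR 0.524). *Tcf7* (chr11:52252371-52283014, minus strand), best known from T cells, was at 2.96 and 2.83 CPM in the controls and 2.89 and 2.49 CPM in the mutants, and the genotypes overlapped. Hence 3 of the 4 had both mutants above both controls, with fold changes of 1.15 to 1.34, and none of the 4 had an FDR below 0.05 in any of the 9 alternatives. Among all genes tested in bulk, 25.8% had both mutants above both controls. The summed choroid plexus markers were at 319 and 202 CPM in the controls and 1178 and 8406 CPM in the mutants, and *Lef1* is found in choroid plexus nuclei (below). Their part in the bulk level of *Lef1* was not tested.

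*Ctnnb1* (chr9:120929216-120960507, plus strand) was at 473 and 466 CPM in the controls and 409 and 430 CPM in the mutants, with both mutants lower. The difference on the log2 scale was small, at -0.16 (standard error 0.0539, unadjusted p 0.0278, FDR 0.208). *Apc*, the scaffold that presents beta-catenin for phosphorylation, was at 313 and 324 CPM in the controls and 297 and 254 CPM in the mutants (log2 fold change -0.21, standard error 0.0857, FDR 0.276). Without mutant replicate 1 the FDR of *Apc* was 0.0287, so that its value rests on mutant replicate 2. *Lrp6* (chr6:134446476-134566965, minus strand) was at 57.9 and 64.9 CPM in the controls and 50.6 and 61.6 CPM in the mutants, and the genotypes overlapped. Counted over the 9 genes, both mutants were below both controls for 3 (*Axin2*, *Ctnnb1* and *Apc*), where 25.4% of all genes were, and above for 3 (*Tcf7l1*, *Tcf7l2* and *Lef1*), where 25.8% were.

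Another 48 genes of the pathway were read from lists of its other parts, and 47 of them were tested in bulk. None had an FC above 3. At an FDR below 0.05 in edgeR stood 4 of the 47, where 1.21% of all genes did, and in DESeq2 9 did (also *Lrp5*, *Fbxw11*, *Tbl1x*, *Tle4* and *Nkd2*), where 8.56% of all genes did. At an unadjusted p below 0.05 in edgeR stood 14 lower and 7 higher in the mutant, or 44.7% of the 47, where 18.8% of all genes did. These lists were chosen with results known, and no test was made of their counts. Of the 12 other Wnt targets tested, 6 were lower and 1 higher at that p, to be read against the same 18.8%, with a median log2 fold change of -0.22 (0.01 over all genes). Of 11 nuclear co-repressors and beta-catenin inhibitors, 4 were lower and 2 higher. Of 10 nuclear co-activators 3 were lower and 2 higher, of 10 destruction complex genes 1 was lower and 1 higher, and of 4 co-receptor and Dishevelled genes 1 was higher.

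Among these, *Apcdd1*, which encodes a Wnt inhibitor of the cell membrane, was at 26.4 and 25.2 CPM in the controls and 13.80 and 12.98 CPM in the mutants (log2 fold change -0.95, standard error 0.0897, FDR 0.0244). *Neurod1*, a transcription factor of granule neurons, was at 31.0 and 32.5 CPM in the controls and 18.0 and 17.1 CPM in the mutants (log2 fold change -0.85, standard error 0.0811, FDR 0.0248). *Bambi*, which encodes a pseudoreceptor of the TGF-beta family, was at 7.09 and 7.15 CPM in the controls and 3.11 and 2.82 CPM in the mutants (log2 fold change -1.26, standard error 0.145, FDR 0.0348). The mean of the mutants was 0.518, 0.554 and 0.416 times that of the controls for these genes, with no overlap between genotypes. *Tle3*, a co-repressor that binds TCF proteins, went the other way, from 36.8 and 39.8 CPM in the controls to 54.8 and 59.6 CPM in the mutants (log2 fold change 0.58, FDR 0.043). *Tbl1x*, a co-activator, was at 51.2 and 51.4 CPM in the controls and 60.3 and 65.0 CPM in the mutants, with an FDR of 0.10.

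DGC nuclei held 77.0% and 69.1% of the *Apcdd1* UMIs of the control samples, and 13.7% and 25.3% of those of the mutant samples. Within DGC nuclei, however, *Apcdd1* was at 30.3 and 40.2 CPM in the controls and 45.9 and 38.5 CPM in the mutants, so that the genotypes overlapped. These values are CPM without TMM scaling, as are those of *Tle3* in DGC nuclei below. The other levels by type in this paragraph are CPM after TMM scaling within the type. In the type deposited as inhibitory neurons 14 *Apcdd1* was at 120 and 220 CPM in the controls and 108 and 84.7 CPM in the mutants, lower in both (log2 fold change -0.94, unadjusted p 0.0234, FDR 0.886). In astrocytes it was higher in both mutants (log2 fold change 1.29, FDR 0.427). For *Bambi* the shares in DGC nuclei were 77.9% and 68.3% in the controls and 11.1% and 20.6% in the mutants. Its level within DGC nuclei was 17.9 and 10.4 CPM in the controls and 11.96 and 3.86 CPM in the mutants, with overlap (log2 fold change -1.46, unadjusted p 0.0179, FDR 0.209). The mutant values rest on 5 and 13 UMIs. Within astrocytes both mutants were below both controls (log2 fold change -1.70, unadjusted p 0.0329, FDR 0.407), from 8 and 16 UMIs in the controls and 2 and 4 UMIs in the mutants. Over all types, 7.06% of 609 tests of the other pathway genes had an unadjusted p below 0.05, where 9.31% of the tests of all genes did. None of the 609 was called. *Tle3* showed the reverse pattern by type, with 2.56% and 4.28% of its control UMIs in DGC nuclei, where it was at 0.44 and 1.11 CPM. CA1 nuclei held 41.5% and 32.8% of its control UMIs. There it was at 7.65 and 7.84 CPM in the controls and 10.7 and 11.6 CPM in the mutants (log2 fold change 0.53, unadjusted p 0.0368, FDR 0.473). The part of the DGC number in these differences was not tested.

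In snRNAseq the level of each gene was first described across the 18 deposited cell types that had at least 10 nuclei in every sample. Values are CPM of the UMIs summed over the nuclei of a type, without further scaling. Since all genes entered the clustering that made the types, these levels are a description and carry no test. The types deposited as EC, CP and inhibitory neurons 15 had too few nuclei and are left out of this order. Among the 18 types, the highest by the mean of the controls for 5 of the 9 genes was the one deposited as inhibitory neurons 14. These genes were *Axin2*, *Lef1*, *Tcf7*, *Nkd1* and *Ctnnb1*. The cluster inhibitory neurons 14, of 519 nuclei, goes against its name. It ranked 1st of all 21 types in the summed markers of meningeal fibroblasts, at 1941 CPM, and 2nd in those of the endothelium and of mural cells, at 3062 and 1723 CPM, but 6th in those of inhibitory neurons, at 292 CPM. It is called cluster 14 here.

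**Figure D2:**
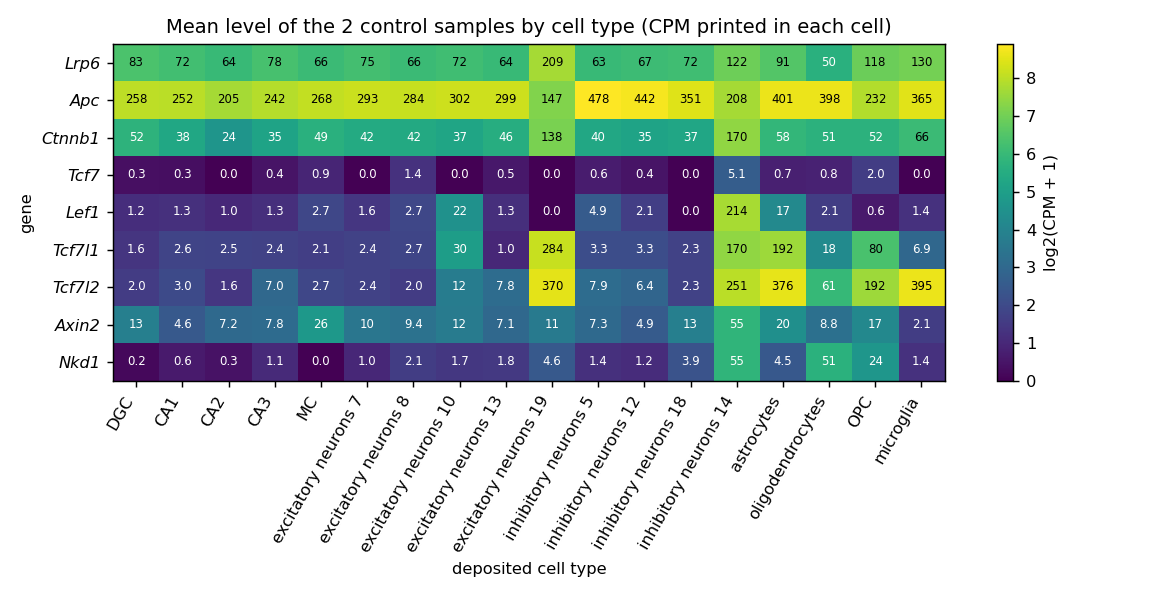
Mean CPM of the 2 control samples for 9 genes (rows) in 18 deposited cell types (columns), printed in each cell and coloured by log2(CPM + 1), to be compared along a row. *Lef1* is at 214 CPM in cluster 14 and at 21.6 CPM in the next type, excitatory neurons 10, whereas *Apc* and *Lrp6* are found in every column.

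Among the 18 types *Lef1* was the most concentrated. In cluster 14 it was at 183 and 246 CPM in the controls and 200 and 153 CPM in the mutants, and the mean of the controls was 9.91 times that of the next type, with no overlap between the types over the 4 samples. In the next types, excitatory neurons 10 and astrocytes, the controls averaged 21.6 and 17.1 CPM, and the 2 types overlapped. Outside the 18 types, *Lef1* was at 227 CPM in EC nuclei of control replicate 2 and 138 and 168 CPM in those of the mutants. In CP nuclei it was at 101 CPM in control replicate 1 and 308 CPM in mutant replicate 2. The lead of cluster 14 thus does not extend to these 2 rare types. In DGC nuclei *Lef1* averaged 1.23 CPM. A UMI of *Lef1* was found in 23.2% (exact 95% interval 14.6 to 33.8%) and 22.0% (14.99 to 30.3%) of the cluster 14 nuclei of the controls, at median depths of 2048 and 2604 UMIs. In DGC nuclei it was found in 0.685% and 0.747%, at median depths of 4628 and 7688 UMIs. Free RNA in the droplets was not measured, and its part in these shares was not tested. The exact intervals cover counting error only. After each nucleus was thinned to 1500 UMIs, the shares were 18.3% and 13.8% in cluster 14 and 0.30% and 0.05% in DGCs.

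*Axin2* was spread more evenly. It was at 42.6 and 67.9 CPM in cluster 14 of the controls and at 58.0 and 32.9 CPM in that of the mutants, 2.12 times the next type in the mean of the controls. Mossy cells (MC), astrocytes, oligodendrocyte precursors (OPC) and DGCs followed with control means of 26.0, 20.4, 16.7 and 13.3 CPM, each overlapping its neighbour. The lowest levels were in CA1 pyramidal cells, at 4.64 CPM, and in microglia, at 2.08 CPM. A UMI of *Axin2* was found in 5.87% and 10.8% of control DGC nuclei, against 0% and 1.05% of control microglia, whose median depths of 1632 and 2434 UMIs were lower. Thinned to 1500 UMIs, the shares were 1.97% and 2.19% in DGCs and 0% and 1.05% in microglia. The exact 95% intervals of the microglia reach 3.45% and 3.02%, so that a difference in share between these types was not detectable at this depth. Since DGCs were the most numerous nuclei of the controls, they held 40.3% and 37.0% of all *Axin2* UMIs there, and 2.93% and 5.56% in the mutants.

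*Nkd1* was at 46.9 and 63.9 CPM in cluster 14 of the controls and at 58.3 and 43.6 CPM in oligodendrocytes, so that the 2 types overlapped, and OPC were next at a control mean of 24.3 CPM. *Nkd1* averaged 0.154 CPM in DGCs. *Tcf7* was close to the detection limit everywhere, at 4.26 and 5.99 CPM in cluster 14 and at or below a control mean of 2.05 CPM in every other type.

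*Tcf7l1* and *Tcf7l2* were both high in astrocytes, cluster 14 and excitatory neurons 19. *Tcf7l1* was highest in excitatory neurons 19, at 349 and 219 CPM in the controls, followed by astrocytes at 185 and 199 CPM and cluster 14 at 171 and 170 CPM, and these types overlapped. It was at 79.9 CPM in OPC and 29.9 CPM in excitatory neurons 10 as a control mean, above oligodendrocytes at 18.0 and microglia at 6.94 CPM. Excitatory neurons 19, of 135 nuclei, ranked 3rd in the summed markers of meningeal fibroblasts and of the endothelium and 18th in those of excitatory neurons. It ranked 1st in the summed markers of thalamus and habenula, at 445 CPM, ahead of cluster 14 at 431 CPM, and in both *Zic1* gave most of that sum, at 362 and 383 CPM. The general excitatory markers thus do not bear out the name. *Tcf7l2* was at 413 and 377 CPM in microglia, 392 and 359 CPM in astrocytes and 456 and 283 CPM in excitatory neurons 19, with overlap among all 3. In DGCs they averaged 1.58 and 1.96 CPM in the controls. Astrocytes, with 7.59% and 7.93% of the control nuclei, held 49.8% and 50.6% of the *Tcf7l1* UMIs and 49.5% and 43.6% of the *Tcf7l2* UMIs.

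*Ctnnb1*, *Apc* and *Lrp6* were found in every type. *Ctnnb1* was at 119 and 222 CPM in cluster 14 of the controls and between 24.2 and 138 CPM as a control mean in the other types. *Apc* was highest in inhibitory neurons 5, at 516 and 440 CPM, followed by inhibitory neurons 12 and astrocytes, all overlapping. *Lrp6* was at 308 and 110 CPM in excitatory neurons 19, where the controls lay far apart, and at 143 and 117 CPM in microglia.

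The genes most like each of these across the 18 types were ranked by Pearson's r of log2(CPM + 1) over the control means, among 14674 genes. The types of 1 sample share a library, and the values are descriptions. *Lef1* was most like *H2-Q7* (r = 0.94), *Gm20758* (0.92) and *Gm26586* (0.89), and *Axin2* like *Mknk2* (0.81), *Bod1* (0.80) and *Cmbl* (0.77). The closest to *Tcf7l1* were *Gm15402* (0.96), *Epas1* (0.95) and *Gpx8* (0.94), and to *Tcf7l2* they were *Tcn2* (0.97), *Hsd17b11* (0.96) and *Tram2* (0.95). *Nkd1* was followed by *Fign* (0.93), *Pllp* (0.90) and *Rnf43* (0.90), *Ctnnb1* by *Emp3*, *H2-Aa* and *Hipk1* (0.94, 0.94 and 0.93), *Apc* by *Iars*, *Iqch* and *Dmac2* (0.80, 0.79 and 0.78), and *Lrp6* by *Tmem86a*, *Cxcl16* and *Sult1a1* (0.93, 0.92 and 0.91).

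Over all nuclei of a sample, none of the 9 genes was called at FC above 2 and FDR below 0.05 by edgeR, where 0% of the 20575 genes tested were. At an unadjusted p below 0.05 stood 1 of the 9, *Lef1*, where 14.8% of all genes did, and DESeq2 called the same 1 gene, of 8 with an adjusted p, where it called 1.8% of all genes. *Lef1* was at 4.36 and 4.25 CPM in the controls and 7.39 and 10.4 CPM in the mutants, both mutants above both controls. This is a log2 fold change of 1.05 (standard error 0.249, unadjusted p 0.00558, FDR 0.205), and in DESeq2 the FDR was 0.0192. A block for the replicate number brought the FDR in edgeR to 0.0309.

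**Figure D3:**
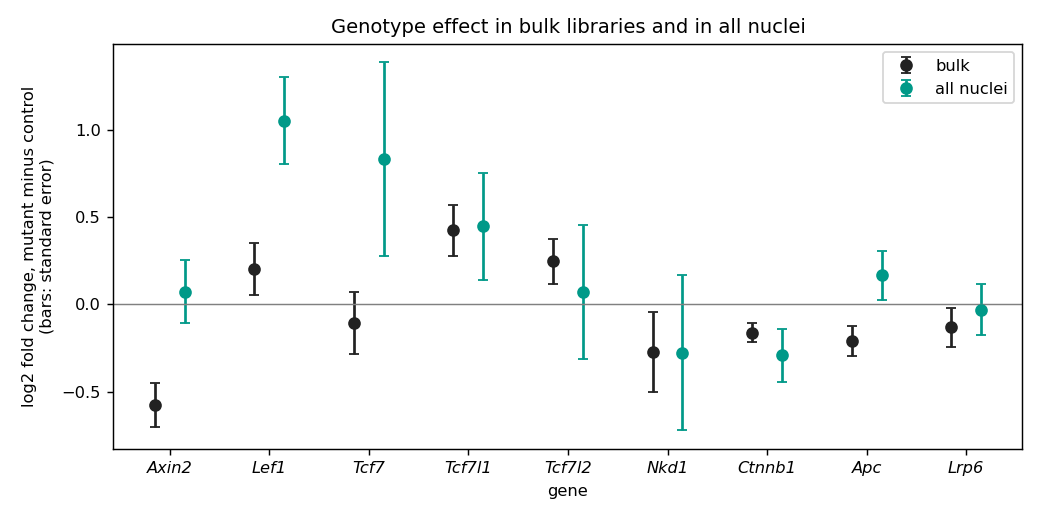
Log2 fold change of mutant over control with its standard error for 9 genes, in bulk libraries (black) and over all nuclei (green). *Axin2* is at -0.58 in bulk and at 0.07 in nuclei, whereas *Lef1* is at 0.20 in bulk and at 1.05 in nuclei.

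The *Lef1* UMIs of the genotypes came from different types. Excitatory neurons 10, with 74 and 40 nuclei in the controls and 286 and 368 in the mutants, held 15.9% and 0.75% of them in the controls and 51.6% and 25.2% in the mutants. The type deposited as CP, which ranked 1st in the summed choroid plexus markers, had 184 nuclei in mutant replicate 2, 9 in control replicate 1 and none in the other samples, and held 35.9% of the *Lef1* UMIs of mutant replicate 2. Without the CP nuclei, mutant replicate 2 was at 6.80 CPM and mutants differed from controls by a log2 fold change of 0.75 (FDR 0.236). Without excitatory neurons 10 it was 0.60 (FDR 0.513). Without both types the samples stood at 3.57 and 4.24 CPM in the controls and 3.82 and 4.33 CPM in the mutants, and the log2 fold change amounted to 0.06 (standard error 0.248, FDR 0.932). These settings were chosen after the data were seen.

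**Figure D4:**
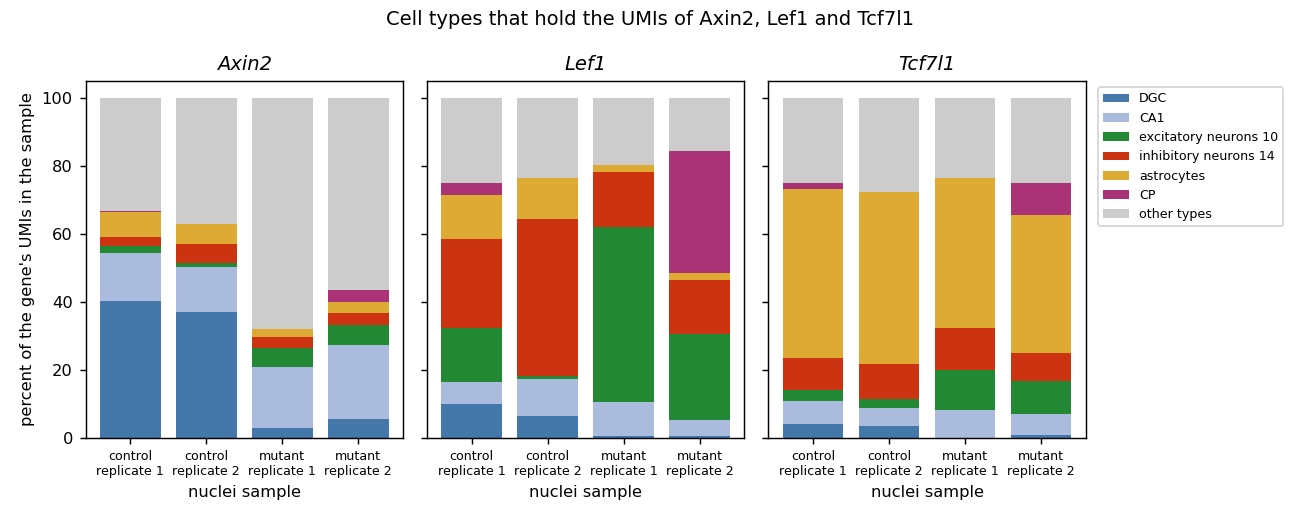
Share of the UMIs of *Axin2*, *Lef1* and *Tcf7l1* that each deposited cell type held in each snRNAseq sample, in percent, with types not listed in grey. DGCs hold 40.3% and 37.0% of *Axin2* in the controls and under 6% in the mutants, and excitatory neurons 10 and CP hold most of *Lef1* in the mutants.

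For *Axin2* no difference was detectable over all nuclei. It was at 9.30 and 9.97 CPM in the controls and 10.5 and 9.80 CPM in the mutants, and the genotypes overlapped (log2 fold change 0.07, standard error 0.182, FDR 0.878). Without DGC nuclei the controls were at 7.87 and 8.44 CPM and the mutants at 10.3 and 9.81 CPM (log2 fold change 0.30, FDR 0.604). Bulk and nuclei were not compared in 1 test. *Apc* was at 299.8 and 274 CPM in the controls and 324 and 320.0 CPM in the mutants, so both mutants were above both controls, the opposite order to bulk. *Ctnnb1* was at 42.6 and 48.0 CPM in the controls and 34.1 and 39.8 CPM in the mutants, lower in both as in bulk (log2 fold change -0.29, FDR 0.426). *Tcf7l1*, *Tcf7l2*, *Tcf7*, *Nkd1* and *Lrp6* overlapped between genotypes, and the direction of *Tcf7l2* turned without DGC nuclei. Of the 46 other pathway genes tested, 8 were lower and 3 higher at an unadjusted p below 0.05. This is 23.9% of the 46, where 14.8% of all genes had such a p. None of the 46 had an FDR below 0.05 in edgeR. In DESeq2, 2 of them had an FDR below 0.05 and an FC above 2, where 1.8% of the genes with an adjusted p did. These were *Apcdd1* (log2 fold change -1.18, FDR 0.00134) and *Bambi* (-2.17, FDR 8.868e-04), both lower in both mutants.

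Within the cell types, 97 combinations of a gene and a type could be tested. None was called at FC above 2 and FDR below 0.05 by edgeR, where 0.19% of the 182213 tests of all genes were, and none by DESeq2. At an unadjusted p below 0.05 stood 6, where 9.31% of all tests did, so that the share was not above that background. Levels are here CPM after TMM scaling within a type.

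Astrocytes held 2 of the 6, where 10.6% of the genes tested in astrocytes had such a p. *Tcf7l1* was at 181 and 203 CPM in the control astrocytes and 384 and 280.4 CPM in the mutant astrocytes, both mutants above both controls. This is a log2 fold change of 0.75 (standard error 0.197, unadjusted p 0.0013, FDR 0.114), an FC of 1.68. *Lef1* was at 18.4 and 15.8 CPM in the controls and 11.6 and 7.06 CPM in the mutants (log2 fold change -1.10, standard error 0.441, FDR 0.358), from 21, 32, 4 and 17 UMIs. *Axin2* was at 21.9 and 18.8 CPM in the controls and 17.5 and 9.97 CPM in the mutants, lower in both, with an unadjusted p of 0.0573 and an FDR of 0.49, and a log2 fold change of -0.82 that came to -0.20 without mutant replicate 2. *Tcf7l2* was at 384 and 366 CPM in the controls and 402 and 498 CPM in the mutants (FDR 0.619). *Wls* itself was lower in mutant astrocytes, at 49.9 and 39.6 CPM in the controls and 2.91 and 2.08 CPM in the mutants (FDR 0.000227). The summed astrocyte markers within these nuclei were at 13073 and 12535 CPM in the controls and 10699 and 11296 CPM in the mutants. Those of the endothelium were at 196 and 170 CPM in the controls and 129 and 131 CPM in the mutants. Those of mural cells were at 184 and 138 CPM in the controls and 106 and 119 CPM in the mutants, whereas those of meningeal fibroblasts overlapped. The part of these lists in the *Lef1* and *Axin2* differences was not tested.

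**Figure D5:**
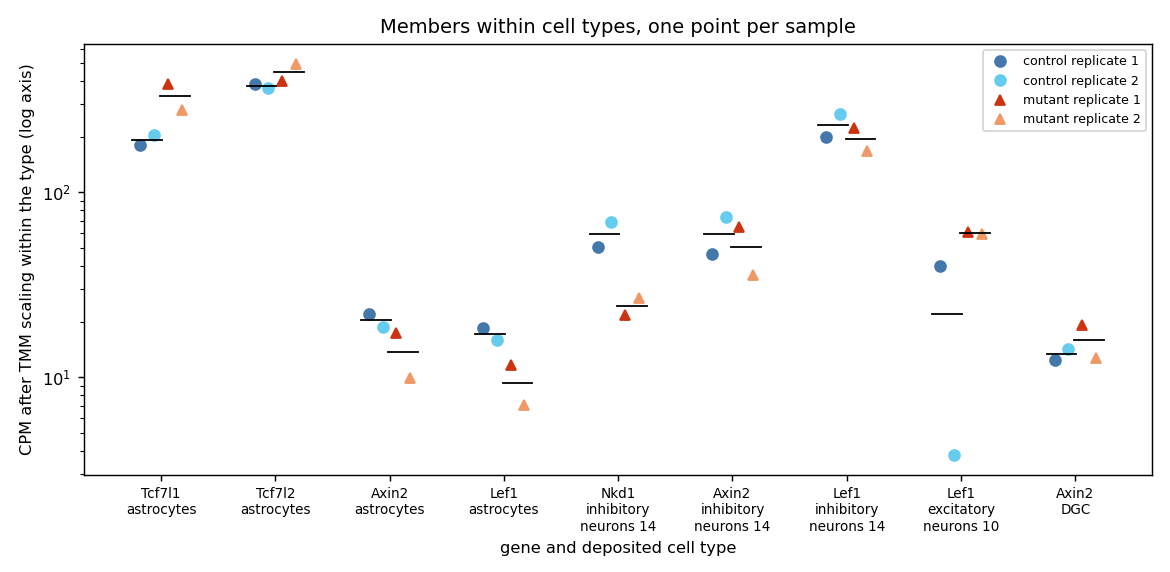
Levels of selected genes within deposited cell types, in CPM after TMM scaling on a log axis, with circles for the control samples, triangles for the mutant samples and a black bar at the mean of each genotype. *Tcf7l1* in astrocytes and *Nkd1* in cluster 14 have no overlap between genotypes, and *Axin2* in DGCs overlaps.

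In cluster 14, *Nkd1* was at 50.9 and 68.9 CPM in the controls and 21.7 and 27.0 CPM in the mutants, both mutants below both controls. Mutants differed from controls by a log2 fold change of -1.25 (standard error 0.418, unadjusted p 0.0144, FDR 0.858) from 11, 32, 3 and 21 UMIs, and 5.59% of the genes tested in this cluster had an unadjusted p below 0.05. *Axin2*, *Lef1* and *Ctnnb1* overlapped between genotypes there, with log2 fold changes of -0.53, -0.32 and 0.26. *Wls* was at 542 and 508 CPM in the controls and 202 and 213 CPM in the mutants of the same cluster. The summed markers of meningeal fibroblasts were at 2161 and 2623 CPM in the controls and 1586 and 1544 CPM in the mutants, and their part in the *Nkd1* difference was not tested.

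In excitatory neurons 10, *Lef1* was at 40.0 and 3.80 CPM in the controls and 61.1 and 59.4 CPM in the mutants. Control replicate 2 stood apart, with 2 UMIs in 40 nuclei. The log2 fold change amounted to 1.36 (standard error 0.508, FDR 0.48), where 8.72% of the genes tested in the type had an unadjusted p below 0.05, and without control replicate 1 it was 3.96 (FDR 3.158e-06), against 0.58 without control replicate 2 (FDR 0.606). Each of these fits has 1 control left, the former with 2 *Lef1* UMIs, and takes the spread from the mutant pair, so the FDR says little about the genotypes. In DGCs *Axin2* was at 12.4 and 14.3 CPM in the controls and 19.1 and 12.8 CPM in the mutants, from 8 and 43 UMIs in the latter, and the genotypes overlapped (log2 fold change 0.08). *Wls* was not lower in mutant DGCs, at 3.33 and 4.45 CPM in the controls and 4.78 and 5.64 CPM in the mutants (log2 fold change 0.49, FDR 0.622). *Tcf7l2* in DGCs was at 2.02 and 1.92 CPM in the controls and 2.39 and 4.75 CPM in the mutants (log2 fold change 1.14, FDR 0.293), with 1 UMI in mutant replicate 1. *Apc* in inhibitory neurons 12 was at 465 and 430.3 CPM in the controls and 559 and 569 CPM in the mutants (log2 fold change 0.34, FDR 0.556).

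Counted over types, *Axin2* was lower in 4 and higher in 10 of 14 types tested, *Apc* higher in all 18, *Tcf7l1* higher in all 10 and *Tcf7l2* higher in 9 of 11. The types of a sample share a mouse and a library, so these counts are no replicates. Whether the effect of genotype in 1 type differed from the mean of the other types was tested in 1 fit. *Tcf7* had too few UMIs to enter this fit. None of 144 such tests of the other 8 genes had an FDR below 0.05, where 0.102% of all tests did, and 10 had an unadjusted p below 0.05, where 5.09% did. *Nkd1* had standard errors of 5082 or more on the log2 scale in every type, so its tests could not show a difference. The same held for *Lef1* in excitatory neurons 19 and for *Lef1* and *Tcf7l1* in inhibitory neurons 18, with standard errors of 17285, 10252 and 2486. It also held for *Tcf7l1* in excitatory neurons 7 (standard error 1147). For *Lef1* in excitatory neurons 10 the standard error was 30.8, so that this test could not show a difference either. The smallest p was that of *Axin2* in astrocytes, 0.00214 (difference -1.15 on the log2 scale, standard error 0.359, FDR 0.31).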

How the data were processed

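The 10 genes and the lists of other pathway genes and cell type markers were chosen with earlier results of these data known. Bulk tables hold, per the labels and the authors' methods, expected counts and TPM that the authors made with RSEM 1.3.0 and Bowtie2 2.2.9 on mm10 (versions from the submitters' processing notes), and a deposited matrix whose values, a normalised signal, equal expected counts divided by a size factor. The kit was directional; the strand setting of the counting is not given in the sources used here. The authors' nuclei files hold UMI counts from Cell Ranger 3.1.0 with the deposited cell types, and every nucleus has at least 1500 UMIs. EBSeq and Monocle, used in the study, were not run.

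Rounding brought expected counts to integers, and UMI counts were summed per sample and type (at least 10 nuclei in every sample, 18 of 21 types). Genes were filtered with filterByExpr, scaled by TMM and tested with edgeR 4.0.16 (quasi-likelihood test, R 4.3.3) on 2 mutants against 2 controls, and p-values were adjusted over all genes by Benjamini-Hochberg. Standard errors are the log2 fold change divided by the square root of F. The p-values measure the spread between single mice. All 10 genes were named in bulk; in a type, a gene was named at an unadjusted p below 0.05 or in its highest type, and *Axin2* also in other types, chosen after its values were seen. Of the other pathway genes, the 5 with the smallest p in bulk were named. Doublets were not called again. Alternatives were DESeq2, other scaling, no filter, the replicate block, limma on the authors' matrix and leaving out each sample or some types. The fits were tested on simulated data.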

Additional observations from a re-analysis of the deposited data

Results flagged for a closer look

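*Lef1* was at 308 CPM (295 UMIs in 184 nuclei) in the CP nuclei of mutant replicate 2, a type too rare in the other samples to enter any comparison between genotypes. In the 9 CP nuclei of control replicate 1 it was at 101 CPM, from 6 UMIs.

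*Apc* was lower in both mutants in bulk (log2 fold change -0.21) and higher in both over all nuclei (0.17), with no overlap between genotypes in either assay. Neither value passed an FDR of 0.05, and the difference between the assays was not tested.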

How the results depend on the processing

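Of the main counts under alternatives, 35 kept within 1.5 times and 5 moved. Of the values of single genes, 233 kept their direction and side of the threshold, 5 came past it and 14 turned. The kept ones include a setting by type with only nuclei of at least 1500 UMIs. Every nucleus has that many, so this setting repeated the main fit and could not move. Of 47 other pathway genes in bulk, 4 had an FDR below 0.05 in edgeR and 9 in DESeq2. Over all nuclei, DESeq2 and the replicate block each called 1 gene, *Lef1*, in place of 0, and in bulk the replicate block called 0. By the labels, replicates share only a number. In bulk, however, same-numbered libraries were alike in *Xist*, at 1.05 and 1.44 CPM in replicate 1 and 518 and 230.1 CPM in replicate 2. In nuclei, replicate 1 of control and mutant had fewer UMIs (38980264 and 26307081) than replicate 2 (61559052 and 76486132). The replicate block cannot be told apart from these differences. The deviations of same-numbered samples correlated at 0.0644 in bulk and 0.516 in nuclei, over 2 pairs. By type, 1 combination was called without the low-count filter and 0 to 2 when a sample was left out. The count of genes highest in cluster 14 was 4 to 6 when a sample was left out. The share of nuclei with a UMI was compared between cluster 14 and DGCs only. It was higher in cluster 14 in every sample for 5 genes, or 6 after thinning. In bulk the log2 fold change turned for *Nkd1* (-0.6143 to 8e-04 when a sample was left out) and *Lrp6* (-0.2881 to 0.0037). Over all nuclei it turned when a sample was left out for *Tcf7l1* (-0.0705 to 0.8102), *Tcf7l2* (-0.7036 to 0.5502), *Nkd1* (-0.757 to 0.3069) and *Lrp6* (-0.1728 to 0.0975). It also turned for *Tcf7l2* with the replicate block (-0.0407) and without DGCs (-0.30) or DGCs and CP (-0.31), and for *Lrp6* without DGCs (0.024) or DGCs and CP (0.0296). The cause was not tested. A fit without a sample has 1 library left in that genotype, assumed to vary like the other pair. Leaving out samples in the test of differences between types was not run. With 2 mice per genotype and few UMIs per type, small differences were not detectable.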

Other observations

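In the 24 nuclei of the type deposited as EC, which ranked 1st in the summed endothelial markers, *Ctnnb1* was at 609 CPM in control replicate 2 and at 551 and 554 CPM in the mutants. *Lef1*, known as a nuclear effector of Wnt signaling in brain endothelium, was at 227 CPM in that control and 138 and 168 CPM in the mutants, and *Nkd1* was at 109 CPM and 68.9 and 134 CPM. Control replicate 1 had no such nuclei, and no test was made.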
